A study of Mus musculus with 2 samples.

Results

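The genes described here are 41 actins, tropomyosins, myosin II chains, calponin-family and other thin-filament proteins, crosslinkers, filament nucleators, turnover factors and SRF coactivators. They were taken by symbol from a deposited table of 23466 rows, and all 41 were found. They were listed by gene family and function, with earlier results of these data known. The cultures were labelled primary mouse microglia, which are macrophages that live in brain and spinal cord. One culture received 1600 μM iron together with 1 μM RSL3, an inhibitor of the lipid hydroperoxide reductase GPX4, to induce the iron-dependent cell death called ferroptosis. The other received DMSO, the solvent, and is the control. With 1 library for each culture there are no replicates, so no error or p-value can be given, and every difference describes this pair of libraries. The labels give no genotype, strain, age, exposure time or number of animals for either culture, and both agents were added together.

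Actin filaments are polymers of actin monomers. Profilin and thymosins bind the monomers, formins and the Arp2/3 complex start and extend filaments, cofilin with WDR1 takes them apart, and capping protein closes their ends. Tropomyosins, calponins and caldesmon lie along the filament, while α-actinins and filamins link filaments to each other. Myosin II, switched on by phosphorylation of its regulatory light chain, pulls on them to give contractile force. Free actin monomers hold the coactivators MKL1 and MKL2 (also called MRTF-A and MRTF-B) away from the transcription factor SRF, which drives many genes of this set through a motif known as the CArG box. Non-muscle isoforms are present in nearly all cells, whereas α-smooth muscle actin, transgelin, calponin 1 and leiomodin 1 are best known from smooth muscle and contractile fibroblasts.

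The labelled cell type was not borne out by its defining markers. Of 15 microglial and myeloid marker genes, 5 were listed at 0 in both libraries (Cx3cr1, Aif1, Siglech, Fcrls and Sall1), and 5 reached 1 FPKM in the iron plus RSL3 library against 3 in the DMSO library. All 10 fibroblast markers were at 10 FPKM or more in both, with a summed level of 4475 FPKM in the iron plus RSL3 library and 5077 FPKM in the DMSO library. The 12 smooth muscle and mural markers summed to 97.4 and 126.8 FPKM in the iron plus RSL3 and DMSO libraries. Of these 12, 6 reached 1 FPKM in each library. Pdgfrb was the highest, at 54.6 FPKM with iron plus RSL3 and 75.3 FPKM with DMSO. In the same order, Cspg4 was at 15.6 and 19.98 FPKM and Mcam at 13.1 and 15.5 FPKM. Des was at 0.12 and 0.15 FPKM, and Kcnj8 and Abcc9 were at 0 in both. The summed microglial list was 37.1 FPKM with iron plus RSL3 and 64.2 FPKM with DMSO, most of it from Tmem119 (26.1 and 59.1 FPKM). The other 4 markers that reached 1 FPKM went the other way within 2-fold on the FPKM + 1 scale: in iron plus RSL3 and DMSO, C1qa was at 1.88 and 0.48 FPKM, Trem2 at 2.36 and 0.73 FPKM, C1qb at 2.46 and 1.24 FPKM and Tyrobp at 3.02 and 1.81 FPKM. The median log2 change of these 5 was 0.62. C1qa and Trem2 reached 1 FPKM only in the iron plus RSL3 library, where they were higher. The limit itself therefore favours a positive median, and no rise is read from it. The 6 astrocyte markers summed to 4.31 FPKM with iron plus RSL3 and 4.45 FPKM with DMSO, and the 6 skeletal muscle markers to 27.9 and 39.9 FPKM, nearly all from Acta1. The part of such differences in the results below was not tested. In bulk RNA, fewer cells of a type and less RNA per cell cannot be told apart.

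Values are FPKM, fragments per kilobase of transcript scaled to the mapped fragments of a library, which allow levels of different genes to be compared per length. A log2 change is log2(FPKM + 1) in the iron plus RSL3 library minus that in the DMSO library, and a gene was called higher or lower only at a difference of 2-fold or more on that scale. All 41 genes reached 1 FPKM in at least 1 library. Of them, 6 were lower with iron plus RSL3 (Actb, Lmod1, Wdr1, Cnn2, Myh9 and Flna), 1 was higher (Flnc) and 34 lay between. The share called lower was 14.6%, against 11.8% of all 11771 measured genes. The share called higher was 2.44%, against 4.25%. At this limit the count of lower genes is thus near that of the table as a whole. Of the 41 genes, 30 reached 50 FPKM in either library, a limit not planned in advance. Of these 30, 5 were lower (16.7%) and 1 higher (3.33%). Of the called genes, Wdr1 reached 50 FPKM only in the DMSO library and Flnc only in the iron plus RSL3 library. Each thus entered through the library where it was higher, so these shares are descriptions only. Of all 1539 genes at that level, 3.05% were lower and 11.0% higher. The median log2 changes at that level were -0.34 for the 30 genes and -0.002 for all 1539. The median log2 change was -0.41 for the 41 genes and -0.38 for all measured genes. Centring the libraries on the median ratio of genes at 10 FPKM or more left 3 lower (Actb, Lmod1 and Wdr1) and 1 higher, beside 6.52% and 5.70% of all genes.

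**Figure D1:**
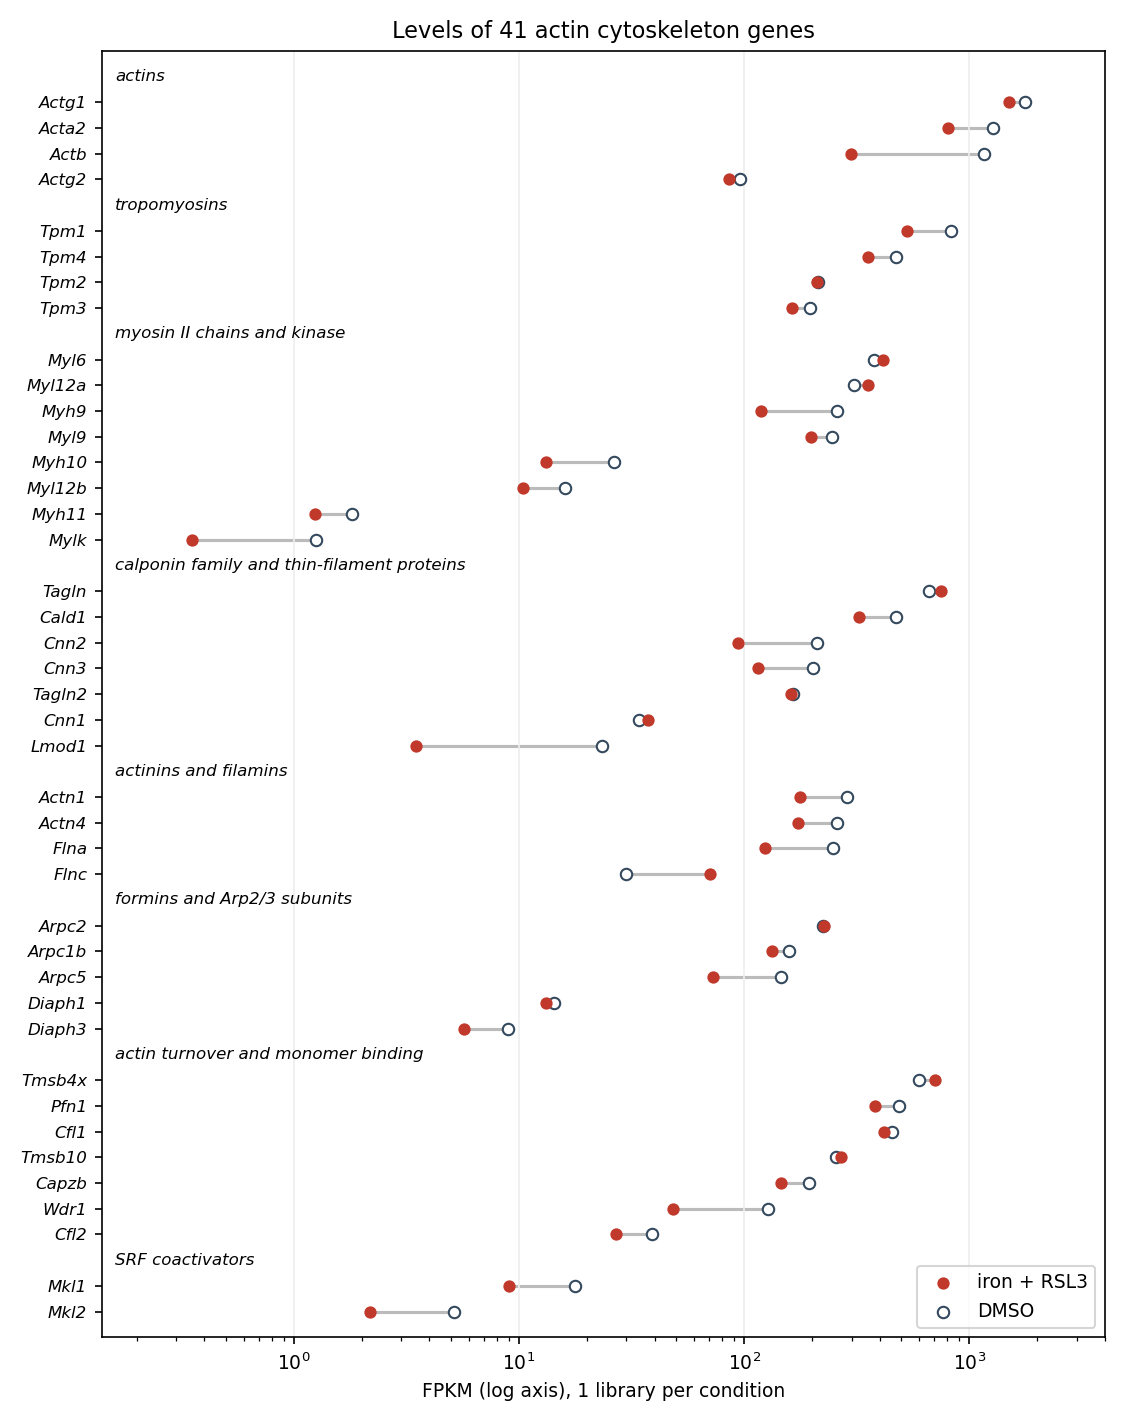
FPKM of the 41 genes on a log axis, by class, with a filled point for the iron plus RSL3 library and an open point for the DMSO library. Lmod1, Actb, Mylk and Wdr1 have the filled points furthest to the left of the open ones, Mylk at no more than 1.25 FPKM, and Flnc has its filled point furthest to the right of the open one.

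Before the levels, the promoters of 7 genes are shown, because SRF and the TEAD factors are known regulators of many such genes and because Cnn2, Lmod1, Flna and Flnc were past 2-fold. The sequences are RefSeq promoter windows on GRCm38.p6, which run from 250 bases before to 50 bases after a start site. Windows were at hand for 36 of the 41 genes. Actb, Actg2, Diaph1, Myh11 and Tagln were without an entry. A CArG box was searched as CC, then 6 letters that are each A or T, then GG, a pattern that is the same for both strands although a single box need not be. Near matches with a letter outside this pattern, such as ccctatatgg in the Acta2 window, were not counted. The full pattern stood in 4 of 36 genes (11.1%), against 1.6% of 8943 measured genes with a window and 1.81% of all 27025 genes. The 250 bases before the start of each follow, 5′ to 3′ on the gene's strand, with the CArG box in capitals.

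Actg1 (chr11:120348496-120348745, minus strand): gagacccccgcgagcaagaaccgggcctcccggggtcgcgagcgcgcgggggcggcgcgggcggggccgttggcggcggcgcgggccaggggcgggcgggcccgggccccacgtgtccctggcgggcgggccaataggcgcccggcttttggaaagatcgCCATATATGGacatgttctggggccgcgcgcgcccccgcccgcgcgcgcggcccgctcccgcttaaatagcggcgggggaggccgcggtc
Myl9 (chr2:156775214-156775463, plus strand): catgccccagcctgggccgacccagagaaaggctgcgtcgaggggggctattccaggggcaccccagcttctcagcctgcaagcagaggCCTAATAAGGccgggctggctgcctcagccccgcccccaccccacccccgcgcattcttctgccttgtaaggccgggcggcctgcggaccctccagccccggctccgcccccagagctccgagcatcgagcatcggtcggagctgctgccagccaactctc
Myl6 (chr10:128493010-128493259, minus strand): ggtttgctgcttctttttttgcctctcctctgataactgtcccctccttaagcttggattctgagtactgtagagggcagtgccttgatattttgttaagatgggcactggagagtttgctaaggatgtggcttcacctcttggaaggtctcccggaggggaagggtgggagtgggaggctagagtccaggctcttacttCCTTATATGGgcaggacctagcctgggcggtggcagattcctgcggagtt
Cnn2 (chr10:79988350-79988599, plus strand): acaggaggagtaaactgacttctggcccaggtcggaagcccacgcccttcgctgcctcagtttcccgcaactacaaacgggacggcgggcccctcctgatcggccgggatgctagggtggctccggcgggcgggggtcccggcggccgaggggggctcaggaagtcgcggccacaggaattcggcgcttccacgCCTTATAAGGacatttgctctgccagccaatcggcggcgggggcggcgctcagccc

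The boxes began 90 bases before the start of Actg1, 161 before that of Myl9, 50 before an alternative start of Myl6 and 56 before that of Cnn2. Of these genes Cnn2 was called lower, and the log2 changes of Actg1, Myl9 and Myl6 were -0.25, -0.32 and 0.13. The core motif of TEAD factors, searched as GGAATG on both strands, stood in 14 of 36 genes (38.9%), against 14.1% of the measured genes and 16.6% of all genes with a window. No gene held both motifs, so none of these matches overlapped. Of the 14 genes with the TEAD motif, 2 were lower and 1 was higher, and of the 22 without it 3 were lower and 0 higher. Over all measured genes, 11.8% were lower and 4.25% higher, and counts this small do not separate the groups from that share. The 3 genes with the TEAD motif that passed 2-fold are shown with the motif in capitals, which is the reverse complement in Flna and Flnc.

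Lmod1 (chr1:135324563-135324812, plus strand): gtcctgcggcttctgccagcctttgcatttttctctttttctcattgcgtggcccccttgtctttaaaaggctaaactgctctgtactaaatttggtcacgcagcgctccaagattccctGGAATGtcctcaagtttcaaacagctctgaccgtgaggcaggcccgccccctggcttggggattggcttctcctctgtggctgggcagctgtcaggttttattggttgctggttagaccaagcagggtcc
Flna (chrX:74246535-74246784, minus strand): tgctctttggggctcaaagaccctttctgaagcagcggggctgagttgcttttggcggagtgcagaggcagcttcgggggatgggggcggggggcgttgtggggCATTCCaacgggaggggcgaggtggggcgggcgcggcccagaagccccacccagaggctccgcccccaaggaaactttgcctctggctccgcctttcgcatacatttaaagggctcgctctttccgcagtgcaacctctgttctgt
Flnc (chr6:29433006-29433255, plus strand): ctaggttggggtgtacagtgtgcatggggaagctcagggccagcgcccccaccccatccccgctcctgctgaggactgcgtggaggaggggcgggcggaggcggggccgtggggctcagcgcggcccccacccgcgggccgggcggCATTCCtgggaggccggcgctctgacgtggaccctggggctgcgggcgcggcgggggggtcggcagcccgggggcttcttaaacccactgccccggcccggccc

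The median log2 change was -0.61 for the 14 genes with the TEAD motif and -0.40 for the 22 without it, beside -0.38 for all measured genes. A match describes these letters in this window and is not evidence of binding.

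Cytoplasmic actin came from a different mix of genes in the iron plus RSL3 library. Actb, which encodes β-actin (ENSMUSG00000029580), lies on chromosome 5 from 142903115 to 142906754 in the GRCm38 build used for all gene positions here. It was at 299.8 FPKM in the iron plus RSL3 library and 1162 FPKM in the DMSO library, 3.87 times lower and a log2 change of -1.95. It was the 234th most abundant gene with iron plus RSL3 and the 20th with DMSO. Among the 763 genes at 100 FPKM or more in either library, its log2 change was the second lowest. Actg1, which encodes γ-actin, a protein nearly identical to β-actin, was at 1495 FPKM with iron plus RSL3 and 1773 FPKM with DMSO, a log2 change of -0.25. The Actb to Actg1 ratio was 0.20 in the iron plus RSL3 library and 0.66 in the DMSO library. This ratio does not depend on how the libraries are scaled. Of 100-base stretches in the longest Actb transcript, 1.10% also occur in transcripts of other genes, but 51.1% of those of Actg1 do. Of 50-base stretches, 14.2% of those of Actb and 56.7% of those of Actg1 do. Actg1 is among the genes that share most with Actb, and the pseudogene Actg-ps1 among those that share most with Actg1. The Actg1 level is therefore uncertain.

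The muscle actins were nearer to their control levels than Actb. Acta2, α-smooth muscle actin (chromosome 19, 34241090 to 34255590), was at 805.3 FPKM in the iron plus RSL3 library and 1273 FPKM in the DMSO library, a log2 change of -0.66. Actg2, the γ-smooth muscle (enteric) actin gene, was at 85.6 and 95.6 FPKM with iron plus RSL3 and with DMSO, a log2 change of -0.16 that became 0.06 after centring. The summed level of the 4 actin genes was 2686 FPKM with iron plus RSL3 and 4303 FPKM with DMSO. Actb held 11.2% of that sum in the iron plus RSL3 library and 27.0% in the DMSO library. Actg1 held 55.7% and 41.2%, and Acta2 29.98% and 29.6%, in the same order of libraries. The Acta2 to Actb ratio was 2.69 with iron plus RSL3 and 1.10 with DMSO.

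**Figure D2:**
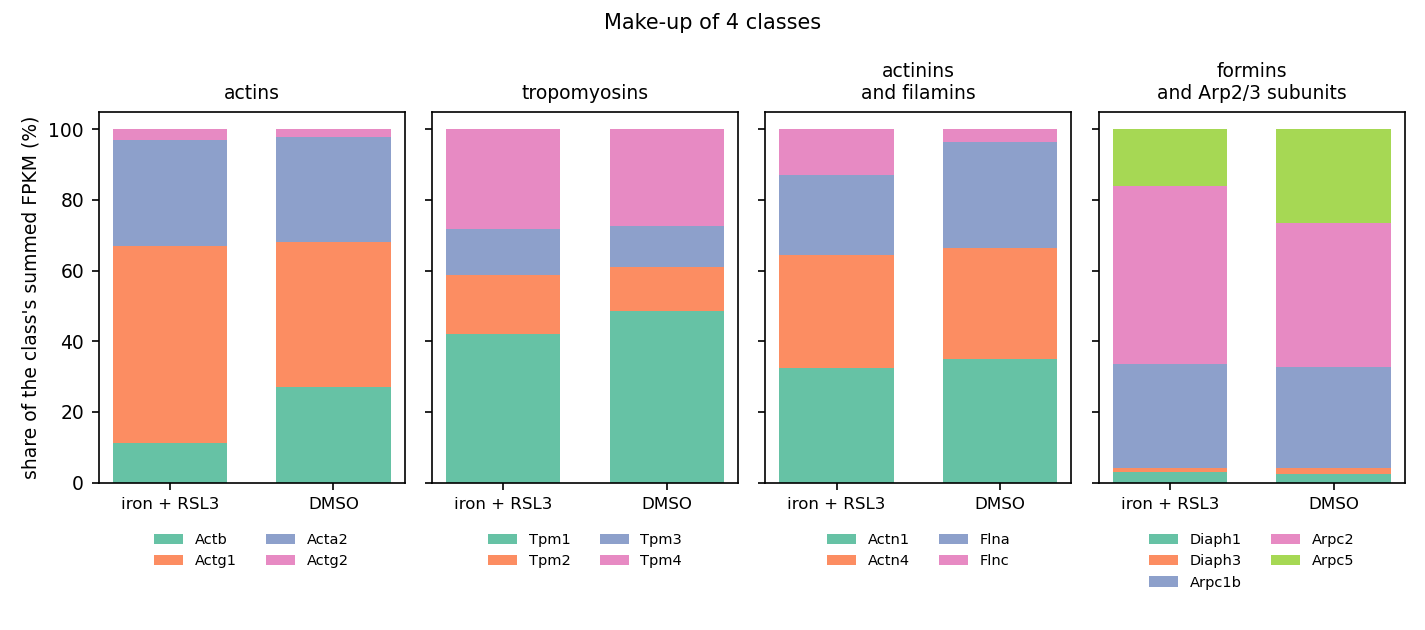
Share of each gene in the summed FPKM of its class, in percent, for 4 classes, with the iron plus RSL3 library left and the DMSO library right. The Actb share was 11.2% with iron plus RSL3 and 27.0% with DMSO, and the Flnc share 12.9% and 3.61%.

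Tropomyosins, the coiled-coil proteins that line the filament and gate myosin access, were all within 2-fold. Tpm1 was at 527.9 FPKM in the iron plus RSL3 library and 831.3 FPKM in the DMSO library, a log2 change of -0.65 and the lowest of the class. Tpm4, a low-molecular-weight cytoskeletal tropomyosin, was at 354.9 FPKM with iron plus RSL3 and 471.3 FPKM with DMSO. Tpm3 was at 162.99 FPKM with iron plus RSL3 and 196.4 FPKM with DMSO. Tpm2, which encodes β-tropomyosin, was at 210.1 FPKM with iron plus RSL3 and 213.8 FPKM with DMSO, a log2 change of -0.03 that turned to 0.19 after centring. The summed tropomyosin level was 1256 FPKM with iron plus RSL3 and 1713 FPKM with DMSO. Each of the genes makes several proteins through alternative promoters and exons, which the table does not separate.

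Within myosin II, a heavy chain was the gene past 2-fold. Myh9, the non-muscle IIA heavy chain (chromosome 15, 77760587 to 77842175), was at 118.2 FPKM in the iron plus RSL3 library and 259.1 FPKM in the DMSO library, 2.19 times lower, with a log2 change of -1.13 that was -0.91 after centring. Myh10, the IIB heavy chain, was at 13.1 FPKM with iron plus RSL3 and 26.4 FPKM with DMSO, a log2 change of -0.95. The ratio of Myh9 to Myh10 was 8.99 with iron plus RSL3 and 9.83 with DMSO, so the IIA and IIB chains differed between the libraries by similar factors. Myl6, the essential light chain, was at 414.3 FPKM with iron plus RSL3 and 378.9 FPKM with DMSO, which gave log2 0.13 as deposited and -0.03 after setting totals equal. Myl12a, a regulatory light chain, was at 356.2 FPKM with iron plus RSL3 and 309.2 FPKM with DMSO. The Myh9 to Myl6 ratio was 0.29 in the iron plus RSL3 library and 0.68 in the DMSO library.

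Myl9, the regulatory light chain typical of smooth muscle, was at 197.3 FPKM with iron plus RSL3 and 246.9 FPKM with DMSO. Myl12b, a close copy of Myl12a, was at 10.4 FPKM with iron plus RSL3 and 15.9 FPKM with DMSO. Reads may be split between these copies, since 24.5% of 100-base stretches of Myl12a and 31.4% of Myl12b occur in other genes. Myh11, the smooth muscle heavy chain, was weak at 1.25 FPKM with iron plus RSL3 and 1.82 FPKM with DMSO. Mylk, the kinase that phosphorylates the regulatory light chain, was at 0.35 FPKM with iron plus RSL3 and 1.25 FPKM with DMSO. Its log2 change of -0.73 became -1.58 with a pseudocount of 0.1 FPKM. Myh11 and Mylk were thus close to the limit of 1 FPKM used here for a measured gene, while Acta2 and Tagln were among the 100 most abundant genes of each library.

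The class of calponin-family and other thin-filament proteins held the gene with the lowest log2 change of the 41, Lmod1. It also held 3 genes within 0.2 of 0, Cnn1, Tagln and Tagln2. Lmod1, leiomodin 1, a nucleator of tropomyosin-decorated filaments (chromosome 1, 135324807 to 135368065), was at 3.48 FPKM in the iron plus RSL3 library and 23.3 FPKM in the DMSO library, 6.70 times lower and a log2 change of -2.44. It has 1 annotated transcript, and none of its 50-base stretches occur in another gene. Cnn2, the calponin found in many non-muscle cells (chromosome 10, 79988584 to 79996062), was at 93.7 FPKM with iron plus RSL3 and 211.2 FPKM with DMSO, a log2 change of -1.16 that was -0.95 after centring. Cnn3, acidic calponin, was at 115.2 FPKM with iron plus RSL3 and 201.9 FPKM with DMSO, a log2 change of -0.80. Cnn1, the calponin of differentiated smooth muscle, was at 37.4 FPKM with iron plus RSL3 and 34.1 FPKM with DMSO, and its log2 change was 0.13 as deposited and -0.02 after setting totals equal. The Cnn1 to Cnn2 ratio was 0.40 in the iron plus RSL3 library and 0.16 in the DMSO library.

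Tagln, transgelin or SM22α, was at 752.7 FPKM with iron plus RSL3 and 663.6 FPKM with DMSO, a log2 change of 0.18 that stayed above 0 in each of 4 rescaled or pseudocount alternatives. Its exons overlap antisense exons over 67.9% of their length, among them those of Pcsk7, which was at 7.49 FPKM with iron plus RSL3 and 12.3 FPKM with DMSO. Tagln2, the transgelin of non-muscle cells, was at 160.96 FPKM with iron plus RSL3 and 164.6 FPKM with DMSO. Cald1, caldesmon, which restrains myosin on the filament, was at 324.7 FPKM with iron plus RSL3 and 471.5 FPKM with DMSO, a log2 change of -0.54. The Tagln2 log2 change was -0.03 as deposited and 0.19 after centring. Lmod1 and Cnn2 were the genes of this class past 2-fold.

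**Figure D3:**
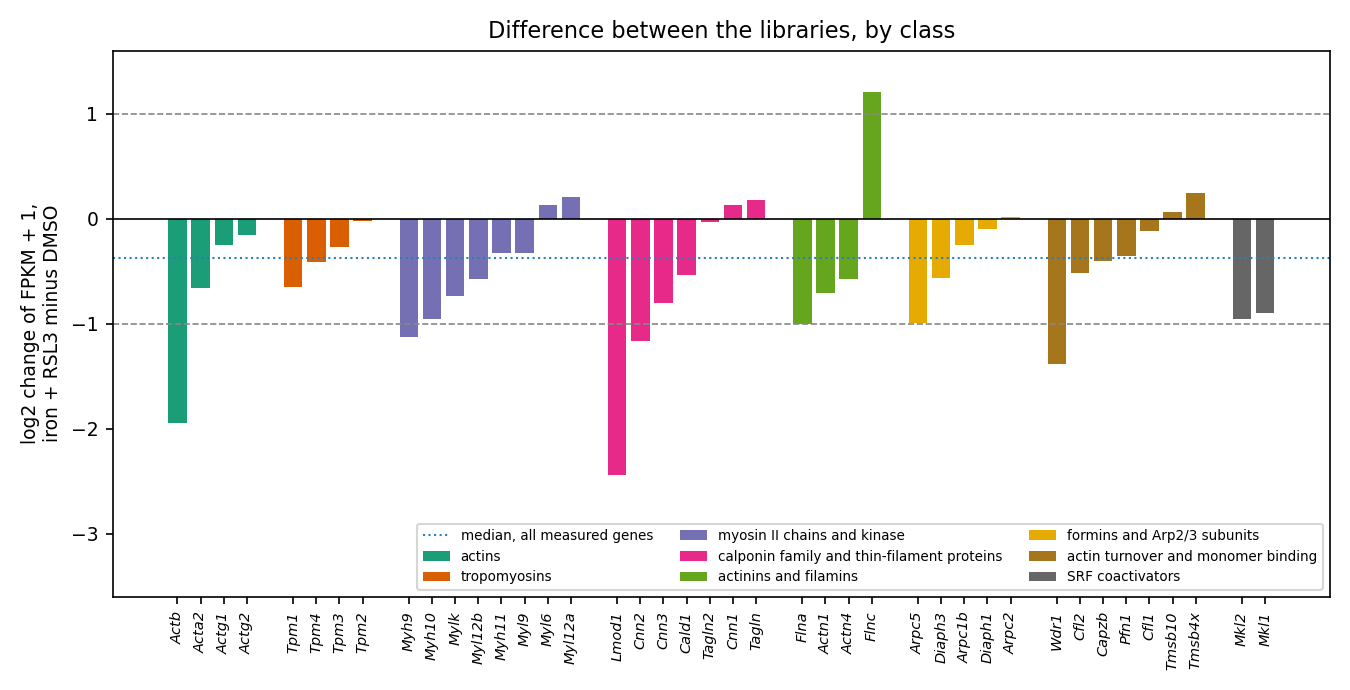
Log2 change of each gene, iron plus RSL3 minus DMSO, on the scale of FPKM + 1, grouped and coloured by class. Dashed lines mark 2-fold and the dotted line marks the median of all measured genes at -0.38, and 33 of the 41 bars are below 0.

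The filamins differed in opposite directions. Flnc, filamin C, a crosslinker best known from striated muscle (chromosome 6, 29433256 to 29461883), was at 70.3 FPKM in the iron plus RSL3 library and 29.8 FPKM in the DMSO library, 2.36 times higher and a log2 change of 1.21. It was higher than 2-fold under each alternative tried, and it was the single gene of the 41 called higher. Flna, filamin A, the widespread crosslinker (chromosome X, 74223461 to 74249820), was at 123.4 FPKM with iron plus RSL3 and 248.6 FPKM with DMSO. Its log2 change of -1.01 was just past 2-fold, and it was -0.79 after centring. The Flnc to Flna ratio was 0.57 with iron plus RSL3 and 0.12 with DMSO, the largest difference among the 13 ratios of related genes computed. None of the 50-base stretches of either transcript occur in another gene. The α-actinins, which bundle filaments in stress fibres and adhesions, were both within 2-fold. Actn1 was at 176.4 FPKM with iron plus RSL3 and 287.8 FPKM with DMSO. Actn4 was at 173.5 FPKM with iron plus RSL3 and 259.0 FPKM with DMSO. Their ratio to each other was 1.02 with iron plus RSL3 and 1.11 with DMSO.

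**Figure D4:**
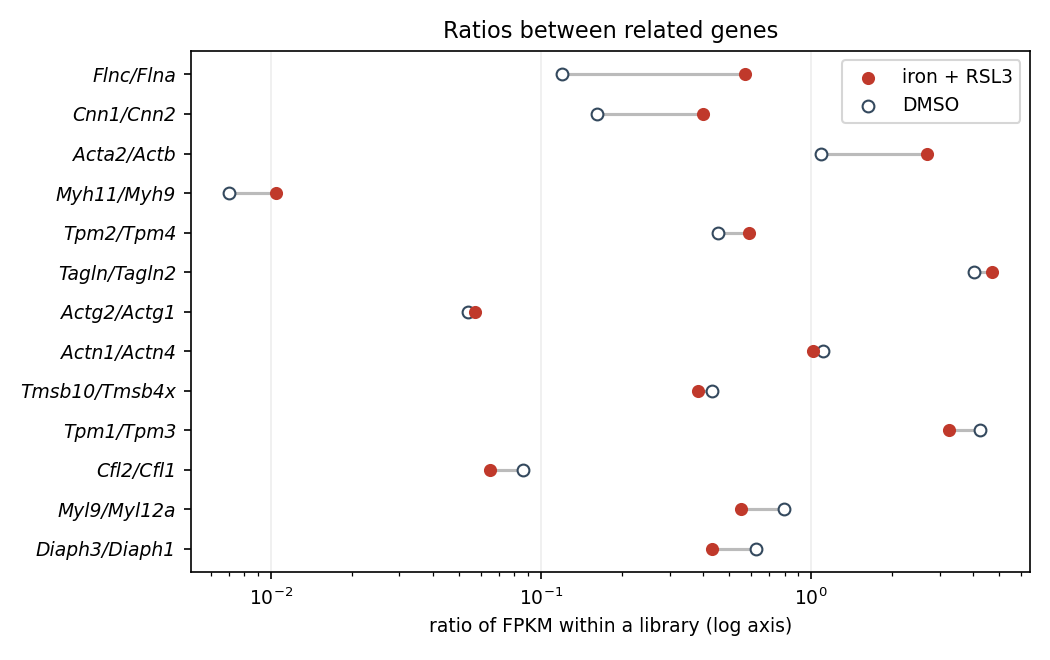
Ratio of FPKM between 13 pairs of related genes within each library, on a log axis, with filled points for iron plus RSL3 and open points for DMSO. The ratios of Flnc to Flna, Cnn1 to Cnn2 and Acta2 to Actb lay furthest apart.

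Subunits of the Arp2/3 complex, which nucleates branched filaments, differed by unequal factors. Arpc5 was at 72.9 FPKM in the iron plus RSL3 library and 146.4 FPKM in the DMSO library. Its log2 change of -0.996 was just short of 2-fold, and was -1.15 with equal totals and -0.78 after centring. Arpc2, a core scaffold subunit, was at 226.8 FPKM with iron plus RSL3 and 224.6 FPKM with DMSO, a log2 change of 0.01 that was -0.14 with equal totals and -0.05 without mitochondrial and top 20 genes. Arpc1b was at 133.1 FPKM with iron plus RSL3 and 157.97 FPKM with DMSO, and 31.1% of its 100-base stretches occur in other genes. The ratio of Arpc5 to Arpc2 was 0.32 with iron plus RSL3 and 0.65 with DMSO. The formins, which extend unbranched filaments, were weaker. Diaph1 was at 13.2 FPKM with iron plus RSL3 and 14.2 FPKM with DMSO, a log2 change of -0.10 that became 0.10 after centring. Diaph3 was at 5.71 FPKM with iron plus RSL3 and 8.95 FPKM with DMSO.

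Among the filament turnover genes of the 41, Wdr1 was the gene past 2-fold. Wdr1, the cofilin cofactor also known as AIP1 (chromosome 5, 38526813 to 38563221), was at 48.4 FPKM in the iron plus RSL3 library and 128.2 FPKM in the DMSO library, 2.65 times lower and a log2 change of -1.39. Cfl1, non-muscle cofilin, the severing protein that WDR1 assists, was at 417.2 FPKM with iron plus RSL3 and 451.9 FPKM with DMSO, a log2 change of -0.12 that became 0.10 after centring. The ratio of Wdr1 to Cfl1 was 0.12 with iron plus RSL3 and 0.28 with DMSO. Cfl2, muscle cofilin, was at 27.0 FPKM with iron plus RSL3 and 38.98 FPKM with DMSO. Capzb, a capping protein subunit, was at 146.3 FPKM with iron plus RSL3 and 193.4 FPKM with DMSO.

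The monomer-binding genes were all within 2-fold. Tmsb4x, thymosin β4, which sequesters actin monomers, was at 704.5 FPKM with iron plus RSL3 and 595.6 FPKM with DMSO, a log2 change of 0.24 that stayed above 0 in each of 4 rescaled or pseudocount alternatives. Tmsb10, its relative, was at 269.6 FPKM with iron plus RSL3 and 257.1 FPKM with DMSO, a log2 change of 0.07 that was -0.09 with equal totals. Pfn1, profilin 1, which loads monomers onto growing ends, was at 383.0 FPKM with iron plus RSL3 and 488.9 FPKM with DMSO. Summed actin FPKM was 2.76 times summed thymosin FPKM in the iron plus RSL3 library and 5.05 times in the DMSO library. Summed actin was 7.01 times Pfn1 with iron plus RSL3 and 8.80 times with DMSO.

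The SRF coactivators, which actin monomers hold inactive, were both close to the 2-fold limit. Mkl1 was at 8.99 FPKM in the iron plus RSL3 library and 17.7 FPKM in the DMSO library. Its log2 change of -0.90 was -1.05 with equal totals and -0.70 after centring. Mkl2 was at 2.17 FPKM with iron plus RSL3 and 5.14 FPKM with DMSO. Its log2 change of -0.96 was -1.21 with a pseudocount of 0.1 FPKM and -0.79 after centring. Srf itself, their DNA-binding partner and a gene outside the 41, was at 25.2 FPKM with iron plus RSL3 and 41.6 FPKM with DMSO, and Myocd, the smooth muscle coactivator, was at 0.04 and 0.06 FPKM.

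The relation of the log2 change to transcript length depended on the measure used. Across the 41 genes the log2 change had a Spearman correlation of -0.41 with the length of the longest annotated transcript. Its Pearson correlation, taken with log2 of the length, was -0.25. Over 11354 measured genes the Spearman and Pearson values were -0.11 and -0.12. With the median transcript length the Spearman and Pearson values were -0.27 and -0.03 for the 41 genes and -0.08 and -0.05 for all. Log2 of the length was again used for Pearson. These genes share libraries and are not independent, so the values are descriptions. The median log2 change was -0.16 for the 13 genes with transcripts under 2000 bases, -0.57 for 17 genes from 2000 to under 4000 bases and -0.73 for 11 longer ones. Over all measured genes the medians were -0.23, -0.41 and -0.43. Actb, with a longest transcript of 1920 bases, was the 1 gene of the shortest group past 2-fold, and Flnc, at 9038 bases the longest of the 41, was the 1 called higher. The part of length in the results was not tested.

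Other genes of the actin cytoskeleton were counted in 4 lists with 85 genes, of which 70 were measured. In these lists 14 of 70 genes were lower with iron plus RSL3 and 0 were higher, beside 11.8% and 4.25% of all measured genes. The median log2 change was -0.48 for the lists and -0.38 for all measured genes. Of 26 other bundling and stress-fibre genes 6 were lower (23.1%, beside the 11.8% of all genes) and none higher (beside 4.25%), and the median was -0.62. Lima1, which encodes the filament-bundling protein EPLIN, was at 41.5 FPKM with iron plus RSL3 and 111.3 FPKM with DMSO, and Ablim1, an actin-binding LIM protein gene, was at 1.90 and 6.48 FPKM. The most abundant gene of that list, Csrp1, was at 231.95 FPKM with iron plus RSL3 and 292.9 FPKM with DMSO.

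Of 19 other turnover, capping and severing genes 5 were lower (26.3%, beside 11.8% of all genes) and none higher (beside 4.25%), and 3 were lower after centring (beside 6.52%). Coro1c, a coronin, was at 25.9 FPKM with iron plus RSL3 and 70.1 FPKM with DMSO, and Svil, supervillin, was at 3.46 and 10.7 FPKM. Dstn, which encodes the cofilin relative destrin, was the most abundant at 394.1 FPKM with iron plus RSL3 and 492.8 FPKM with DMSO. Of 8 other formins 2 were lower (beside 11.8% of all genes) and none higher (beside 4.25%). After centring 1 was lower (beside 6.52%). Counts from 8 genes do not separate this list from those shares. Inf2 was at 25.5 FPKM with iron plus RSL3 and 58.4 FPKM with DMSO, and Fhod1 was at 3.79 and 10.4 FPKM. Of 17 other Arp2/3, WASP and WAVE genes 1 was lower (5.88%, beside 11.8% of all genes) and none higher (beside 4.25%). The lower gene was the WAVE complex gene Cyfip1, at 12.4 FPKM with iron plus RSL3 and 34.6 FPKM with DMSO. Actr3, the ARP3 subunit gene and the most abundant of these, was at 128.9 FPKM with iron plus RSL3 and 166.5 FPKM with DMSO.

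**Figure D5:**
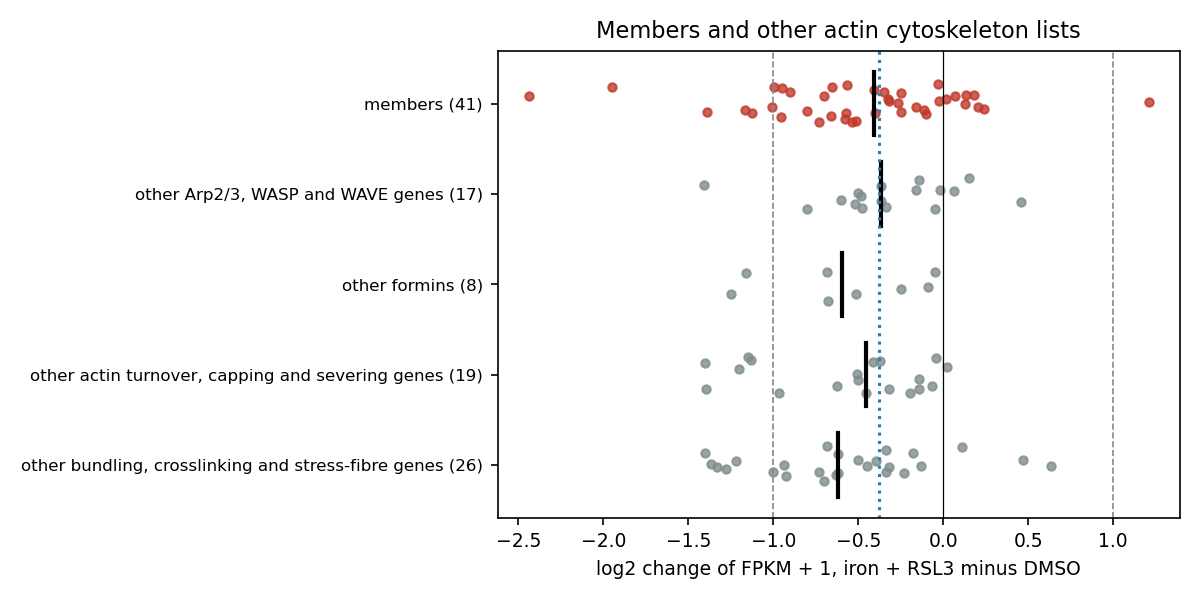
Log2 change, iron plus RSL3 minus DMSO, of the 41 genes and of the measured genes of 4 other actin cytoskeleton lists, 1 point a gene. Black bars are list medians, dashed lines mark 2-fold and the dotted line is the median of all measured genes, and Flnc is the point past 2-fold on the right.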

How the data were processed

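Total RNA was extracted with TRIzol and poly(A) RNA was made into libraries, per the labels' protocols, which name no step that marks strand. The authors deposited FPKM values. Per the submitters' processing notes the build was GRCm38 and the tools included StringTie, HISAT2, edgeR and DESeq2, with no version or role. For annotation and filters, the sources used here give nothing. Columns were assigned by library name, and 0 value columns were left unassigned. Of 27 symbols turned into dates, 27 were restored by identifier.

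The log2 change used a pseudocount of 1 FPKM, over genes at 1 FPKM or more in either library, with a size rule of 2-fold and no test. The 41 genes and all lists were chosen with earlier results of these data known. Named genes were the 41 members and, per list, up to 2 genes per direction past 2-fold and the most abundant, with Srf, Myocd and reference genes added after their values were seen. A further list of cytoskeleton genes, a marker gene and a reference gene are not reported here and are left out of the counts. Read counts were not used: 36.96% of low values of genes with 1 transcript in the iron plus RSL3 library and 36.8% in the DMSO library lay within 0.05 of a whole step, against 10% if evenly spread. Depth is therefore unknown, and no counting intervals are given. FPKM totals were 429250 in the iron plus RSL3 library and 385141 in the DMSO library. Coordinates, lengths and shared sequence came from GENCODE M21 on GRCm38, and promoters from RefSeq on GRCm38.p6. Calculations ran in Python 3.11.15 with pandas 2.3.3 and scipy 1.17.1 and were tested on simulated data.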

Additional observations from a re-analysis of the deposited data

How the results depend on the processing

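Of the 41 genes, 6 were lower and 1 was higher as reported, and the 1 higher gene, Flnc, was called under each of the 10 alternatives. The count of lower genes was 10 with both libraries set to the same total (17.2% of all genes were then lower), 9 without mitochondrial and top 20 genes (13.7%), 9 with a pseudocount of 0.1 FPKM (20.2%) and 15 with a 1.5-fold rule (34.7%). It was 3 after centring (6.52%), and 3 (2.75%) when counted from the median of all genes, each time without Cnn2, Flna and Myh9. It was 6 without a filter (5.9%), 6 at a limit of 5 FPKM (11.7%) and 5 at a limit of 50 FPKM (3.05%). Wdr1 reached that last limit only through the DMSO library. The median log2 change, -0.41 as reported, was -0.51 with a pseudocount of 0.1 FPKM, -0.56 with equal totals, -0.20 after centring and -0.55 over the 32 genes that share little sequence with others, a subset chosen after seeing the data. Scaling moved the median of all genes as well: it was -0.38 as deposited, -0.51 with equal totals and -0.18 after centring. After centring, lower genes numbered 1 among other formins and 3 among other turnover genes, beside 6.52% of all genes. No called gene changed sign. No paired analysis was possible because each condition had 1 library. With no replicates and unknown depth, the spread between cultures cannot be given.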

Other observations

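Actb is widely used as a reference gene for expression measurements, so its level was set beside 11 other common reference genes, a list chosen after the Actb value had been seen. The ratio of Actb to the other gene was lower with iron plus RSL3 for all 11, by 2.02-fold against Sdha at the least and by 17.6-fold against Gapdh at the most, with a median of 3.74-fold. Actb itself was 3.87 times lower, so its ratio to any gene less reduced than that was bound to be lower. The ratios describe the size of the difference and are not separate support for it. Hprt differed little, at 61.8 FPKM in the iron plus RSL3 library and 63.96 FPKM in the DMSO library, and the Actb to Hprt ratio was 4.85 with iron plus RSL3 and 18.2 with DMSO. Ywhaz was at 103.6 FPKM with iron plus RSL3 and 115.1 FPKM with DMSO, and Tbp at 2.97 and 4.27 FPKM. Of the 11 genes, 10 were within 2-fold. The exception was Gapdh, at 73.2 FPKM with iron plus RSL3 and 16.1 FPKM with DMSO. Gapdh has many processed copies in the mouse genome, and its separate level is uncertain.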
